A study of Mus musculus with 11 samples.

Results

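EC4 cells labelled MYC high that had spent 24 h in low methionine were set against EC4 cells labelled MYC low that had spent the same time in full methionine. The comparison covers 6 of the 11 libraries of the study, chosen by their labels alone. It was read over the 12909 of 55416 gene identifiers whose mean normalized count over the 11 libraries was at least 10. The question was where methionine restriction brought MYC high cells to the transcript levels of MYC low cells in full medium, and where the cells stayed apart. No library belongs to both groups.

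MYC is a transcription factor that pairs with MAX, binds E-boxes in promoters and is known for raising genes of ribosome production, nucleotide synthesis and growth, in liver tumours among others. Methionine is an essential amino acid. It starts translation and is turned into S-adenosylmethionine, the methyl donor of DNA, RNA and histone methyltransferases and, after decarboxylation, the source of the propylamine groups of polyamines. Cells short of an amino acid are known to raise ATF4, a transcription factor for amino acid synthesis and uptake.

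All groups are EC4 cells, a mouse liver cancer line grown in DMEM and known for a human MYC transgene under tetracycline control. The labels give the genotype as MYC on for MYC high cells and MYC off for MYC low cells, and name no agent that switches it. The 3 libraries labelled MYC high at 10 µM methionine are called the restricted libraries below, and the 3 labelled MYC low at 200 µM methionine the reference libraries. Values of the 2 libraries labelled MYC high at 200 µM, called the fed MYC high libraries, stand beside them. They share no library with the restricted group, but their difference from MYC low cells rests on the same 3 reference libraries. MYC low cells at 10 µM (3 libraries) entered the fit. The replicate numbered 1 of the fed MYC high group was not analysed here.

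EC4 is 1 cell line, so nothing here speaks of other tumours, and the labels do not say that replicates are separate cultures. What the p-values weigh is the scatter of these libraries, and it may be only technical. Libraries held 10858936 to 13085689 reads on genes. In bulk RNA, fewer cells of a kind and less of a transcript per cell cannot be told apart. The line showed little of a mature liver cell, with 16 of 26 hepatocyte markers at 0 reads in all 6 libraries, albumin (Alb) among them, and 4 at a testable level. A count of 0 allows up to 3 reads in a library. Lymphocyte markers gave no testable gene of 11, and 10 of 15 macrophage markers and 9 of 20 fibroblast markers stood at 0 in all 6 libraries.

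The promoters of 4 genes on which the results turn are shown first, as the 250 bases before the start of transcription, from RefSeq on build GRCm38.p6. They carry 3 short motifs, searched on both strands. These are the MYC E-box CACGTG, the core of the hypoxia response element (ACGTG or GCGTG, which the E-box also contains) and the composite element TGATGNAA bound by ATF4 with its partners. Capitals mark the matches.
Nop2, chr6:125131633-125131882, plus strand, E-box: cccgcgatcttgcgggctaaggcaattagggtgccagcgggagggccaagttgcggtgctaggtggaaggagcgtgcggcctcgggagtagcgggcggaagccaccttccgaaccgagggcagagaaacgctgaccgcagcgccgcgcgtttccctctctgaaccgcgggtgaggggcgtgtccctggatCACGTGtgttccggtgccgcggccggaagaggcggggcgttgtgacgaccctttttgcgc
Ldha, chr7:46845554-46845803, plus strand, hypoxia core: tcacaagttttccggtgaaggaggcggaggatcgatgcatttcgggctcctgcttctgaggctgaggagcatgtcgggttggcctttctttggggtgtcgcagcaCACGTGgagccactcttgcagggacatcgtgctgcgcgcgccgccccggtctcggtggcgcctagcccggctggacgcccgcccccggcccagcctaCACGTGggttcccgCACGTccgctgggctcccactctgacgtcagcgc
Bnip3, chr7:138909507-138909756, minus strand, hypoxia core: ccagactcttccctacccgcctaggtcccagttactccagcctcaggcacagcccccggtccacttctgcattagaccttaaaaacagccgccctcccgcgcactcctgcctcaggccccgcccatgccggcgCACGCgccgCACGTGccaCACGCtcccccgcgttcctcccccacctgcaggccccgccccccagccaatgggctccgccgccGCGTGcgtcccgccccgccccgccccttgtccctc
Asns, chr6:7693210-7693459, minus strand, TGATGNAA: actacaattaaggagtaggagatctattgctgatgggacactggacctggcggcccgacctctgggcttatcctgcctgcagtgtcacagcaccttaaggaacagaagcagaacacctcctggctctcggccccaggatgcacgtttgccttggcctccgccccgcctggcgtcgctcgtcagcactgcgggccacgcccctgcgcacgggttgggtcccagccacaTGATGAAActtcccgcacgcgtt
Nop2, a nucleolar RNA methyltransferase needed for the large ribosomal subunit, has 1 E-box at position -60. Ldha, lactate dehydrogenase A, and Bnip3, a mitophagy receptor, have 5 matches each, some of them the same site read on both strands. Ldha has a second listed start, whose window holds 1 match. Asns, asparagine synthetase, has its element at position -23. Of the 9263 tested genes with a promoter in the table, 10.2% hold the E-box, 62.8% a hypoxia core and 2.33% TGATGNAA in this window. The promoters of Nop56 and Trib3, both described below, hold no E-box and no TGATGNAA, respectively. A match describes the letters and is not a measured site.

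Across all genes the groups differed widely, with about as many genes higher as lower. The size factors of the deposited values were median ratios over genes, a scaling that makes the typical gene equal across libraries. The even split and the median difference below follow in part from that scaling. Higher, lower and alike are relative to it, and a change in RNA per cell shared by all genes would not be seen. A difference is given on the scale log2(normalized count + 1), restricted minus reference, and was tested with limma over all 4 groups. Of 12909 genes, 4712 (36.5%) were higher and 4858 (37.6%) lower in the restricted libraries at an adjusted p under 0.05. At least 2-fold differences made up 1011 genes higher (7.83%) and 1116 lower (8.65%). The median difference over all genes was -0.01 and the median absolute difference 0.44, with a median SE of 0.074.

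A gene was called alike when the whole 95% interval of its difference lay within 0.32 log2 units of 0. That held for 2470 genes (19.1%), 971 of which (7.52%) had a small difference that still passed the test. Another 1840 genes (14.3%) were neither called different nor alike, which says only that these libraries do not settle them. Transcriptome-wide the median absolute difference from the reference group was 0.44 for the restricted and 0.49 for the fed MYC high libraries. Either direction together, 74.1% of genes differed, most of them by less than 2-fold.

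**Figure D1:**
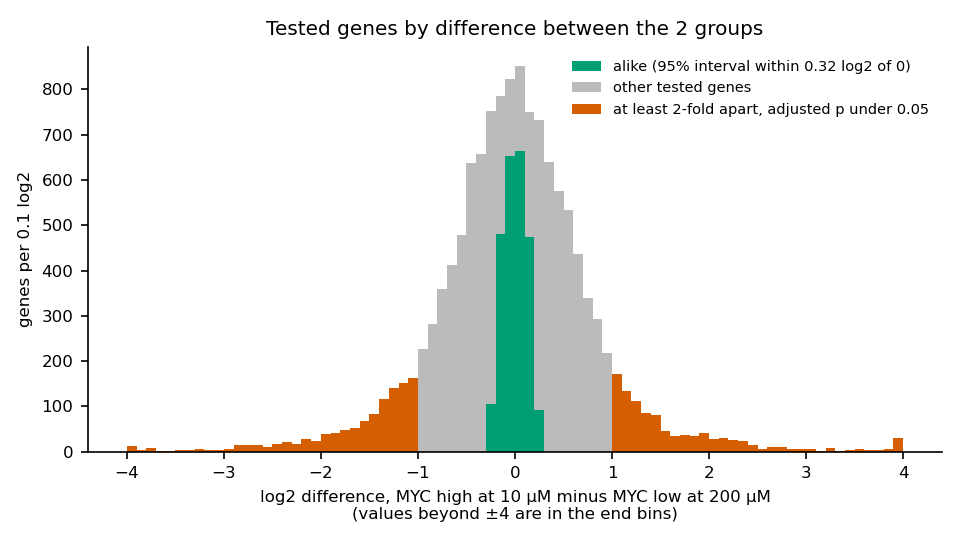
Number of tested genes (vertical axis, per 0.1 log2) by log2 difference between MYC high cells at 10 µM and MYC low cells at 200 µM methionine (horizontal axis). Green marks the 2470 alike genes, orange the 1011 genes at least 2-fold higher and the 1116 at least 2-fold lower, grey the other tested genes. The spread is close to even on both sides of 0, which follows in part from the scaling of the libraries.

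Many of the gene lists below fall into 1 of 4 patterns by their medians, while others fit none of them. In the first the restricted libraries stood nearer to the reference than the fed MYC high libraries did. Ribosome biogenesis, aminoacyl-tRNA synthetases, DNA replication and methyltransferases are of this kind. In the second they stood about as far from the reference as the fed MYC high libraries, higher for ribosomal proteins and lower for mitochondrially encoded messages. In the third they lay below the reference although the fed MYC high libraries lay above it, as for ATF4 targets. In the fourth they moved away from both, upwards for glycolysis, hypoxia-inducible and sterol genes and downwards for the TGF-beta pathway. A list of this kind describes these libraries and was not set against other lists by a test. Most alike genes named from a list were picked for a large difference in full medium, so its size is a description.

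**Figure D2:**
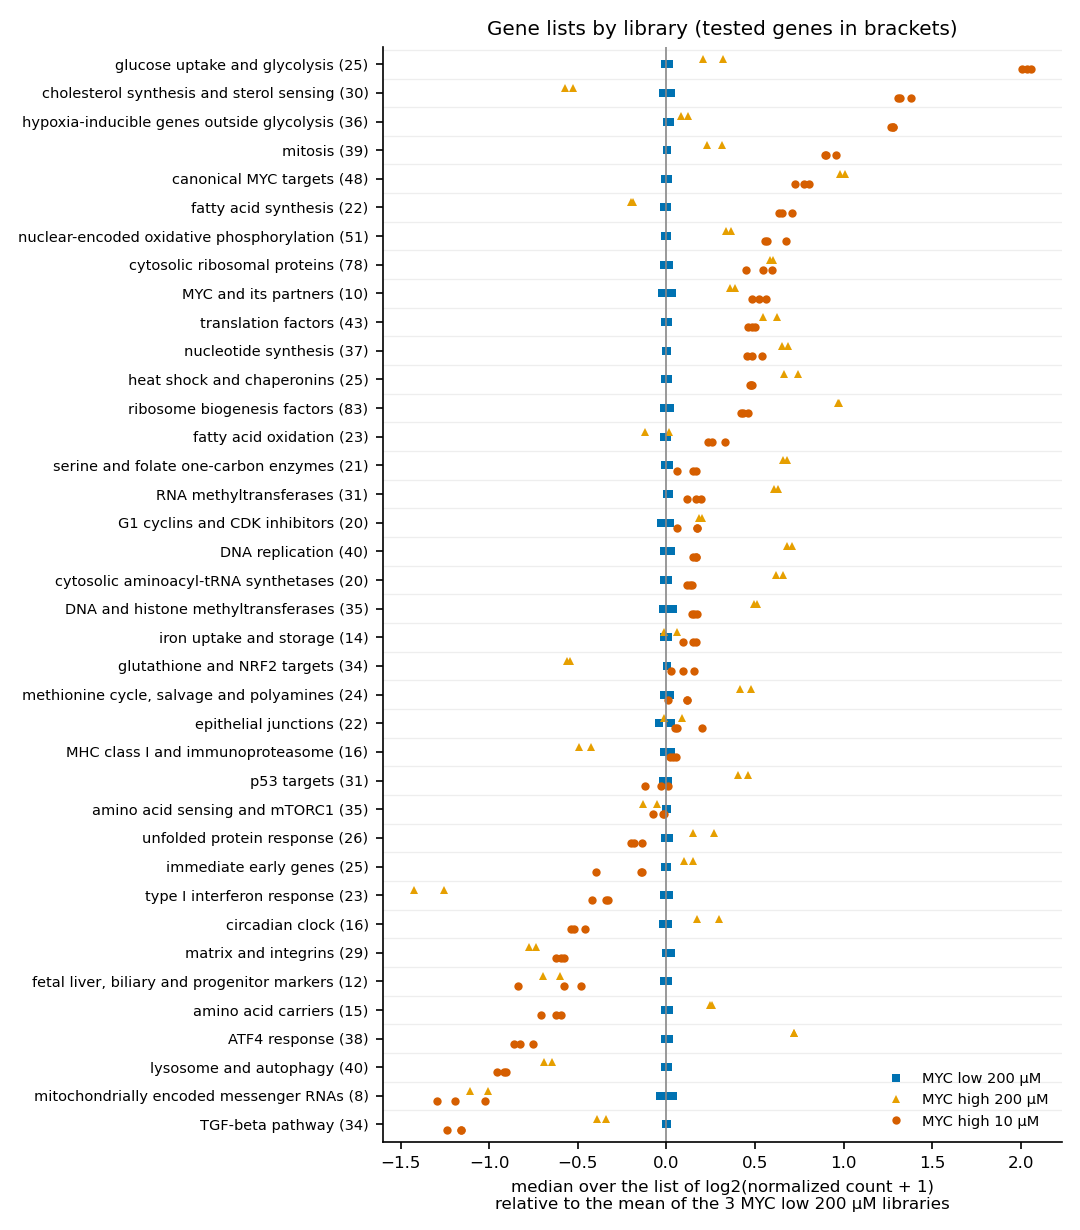
Median level of each gene list in single libraries (points), as log2(normalized count + 1) relative to the mean of the 3 MYC low 200 µM libraries (horizontal axis). Squares are MYC low at 200 µM, triangles MYC high at 200 µM and circles MYC high at 10 µM, and the restricted libraries are highest for glycolysis (median difference 2.03) and lowest for the TGF-beta pathway (-1.21) and mitochondrially encoded messages (-1.18), which overlap.

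The Myc transcript itself ran against the group name. Normalized counts of mouse Myc were 291, 366 and 350.3 in the restricted libraries, 1106, 1133 and 1168 in the reference libraries and 2164 and 2014 in the fed MYC high libraries. All 3 restricted libraries lay below all 3 reference libraries, by 3.38-fold (log2 difference -1.76, SE 0.063, adjusted p = 1.28e-24). In full medium the sign was the other one, at 0.88. Reads from a human transgene would be counted only where they match the mouse gene, so the count does not measure MYC in full, and MYC high stands for the label throughout.

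Among MYC and its partners, 8 of 10 tested members were higher and 2 lower (median 0.54), against 36.5% and 37.6% of all genes. The 3 at least 2-fold higher belong to the MXD group, repressors that compete with MYC for MAX. Mxd1 stood at 945, 1024 and 1046 in the restricted and 251, 277 and 248 in the reference libraries, a 3.89-fold difference (log2 difference 1.96, SE 0.073, adjusted p = 5.95e-24). Mxi1 was 3.38-fold higher (log2 difference 1.76, SE 0.049, adjusted p = 8.1e-28) and Mxd3 2.09-fold higher (log2 difference 1.06). In the fed MYC high libraries the differences of these 3 genes from the reference were -0.34, 0.87 and -0.053. Mnt, another repressor that pairs with MAX, was the second lower member, at 990.2, 1029 and 1016 against 1585, 1582 and 1512, 1.54-fold lower (log2 difference -0.62).

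Ribosome biogenesis genes lay nearer to the reference at low than at full methionine. The 83 tested genes had a median difference of 0.42 in the restricted libraries, against 0.97 in the fed MYC high libraries. Of them 61 were higher and 13 lower, 11 at least 2-fold higher and none at least 2-fold lower, and 23 (27.7%, against 19.1% of all genes) were alike. The snoRNP core proteins show the full range. Nop56, which scaffolds the box C/D particles, had 2510.1, 2484 and 2423 in the restricted, 2179, 2256 and 2288 in the reference and 7878 and 8011 in the fed MYC high libraries. The restricted libraries lay just above the reference without overlap, with a difference of 0.14 (95% interval 0.072 to 0.21), where fed MYC high cells stood 1.83 above it.

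Gar1, a protein of the box H/ACA particles that guide pseudouridylation, had 529.7, 490.1 and 511 in the restricted and 502, 496 and 509 in the reference libraries. The groups overlapped, and the interval of the difference ran from -0.094 to 0.14 (adjusted p = 0.74). Fed MYC high libraries had 1587 and 1640.1. Nop58, the partner of Nop56, went past the reference to the lower side, with 1880.5, 1958 and 1888 against 2336, 2348 and 2402. It was 1.24-fold lower (log2 difference -0.31, SE 0.037, adjusted p = 2.02e-09), while its difference in full medium was 1.70. Nop14, a small subunit assembly factor, and Tcof1, which supports transcription of ribosomal RNA, were lower by more (-0.67 and -0.62), with differences in full medium of 1.13 and 0.93.

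Other nucleolar genes kept a clear excess. Nop2 had 1817, 1718 and 1685 in the restricted and 1206, 1182 and 1239 in the reference libraries, 1.44-fold higher (log2 difference 0.52, SE 0.039, adjusted p = 1.12e-14), against 1.36 in full medium. Ncl (nucleolin) was 1.53-fold higher (log2 difference 0.62, in full medium 1.06). Nolc1, a nucleolar chaperone of snoRNPs, was 2.10-fold higher (1.07 against 1.65 in full medium). Bop1, of the PeBoW complex, and Npm1 (nucleophosmin) stood farther above the reference than in full medium, at 1.38 against 0.85 and 0.93 against 0.64. So within 1 pathway some members met the level of MYC low cells, some passed below it and some did not approach it. In the E-box search, 11.1% of the 72 promoters found for this list and 26.8% of the 41 of the canonical MYC targets held CACGTG, against 10.2% of all. The share was higher still in some lists whose medians lay below the reference. It was 36.7% of 30 for lysosome and autophagy and 35.7% of 14 for clock genes. Among lists above the reference it was 33.3% of 9 for MYC and its partners and 27.3% of 22 for sterol genes. It was 8.44% over the genes at least 2-fold higher and 10.1% over those at least 2-fold lower.

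Canonical MYC targets as a list were higher in 42 of 48 and lower in 5 (Nop58, Ddx18, Ccnd2, Mcm4 and Nme2), with 14 at least 2-fold higher and 6 alike. Their median was 0.76, against 1.0 in full medium. Tfrc, the transferrin receptor, had 5226, 4820.4 and 4791 in the restricted and 1706, 1781 and 1837 in the reference libraries, 2.79-fold higher (log2 difference 1.48, SE 0.036, adjusted p = 6.3e-30). Uck2, a uridine-cytidine kinase, was 4.42-fold higher, with 3039, 2986 and 2968 against 685, 677 and 674 and no overlap. The list shares genes with the lists of glycolysis, ribosome biogenesis and replication.

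Replication genes followed the pattern of ribosome biogenesis. Of 40 tested, 24 were higher and 13 lower, and 13 (32.5%) were alike. The median was 0.16, against 0.69 in full medium. Mcm5, a subunit of the replicative helicase, had 1590.2, 1582 and 1531 in the restricted, 1329.9, 1389 and 1344 in the reference and 3720.1 and 3636 in the fed MYC high libraries. It was alike by its interval (0.13 to 0.29), although the groups did not overlap. Rpa2, of the single-strand binding complex, overlapped between the groups, with 345, 349 and 354 against 322, 369 and 363 (difference -0.0042, 95% interval -0.15 to 0.14), where the difference in full medium was 1.68.

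Other helicase and licensing genes were lower than the reference. Mcm2 was 1.90-fold lower (log2 difference -0.93, SE 0.038, adjusted p = 8.36e-23), Mcm4 1.60-fold lower (log2 difference -0.68) and the loading factor Cdc6 1.52-fold lower (-0.60), with differences in full medium of 0.78, 1.09 and 1.53. Pola2, a subunit of the polymerase that primes synthesis, was the 1 member at least 2-fold higher (2.20-fold, log2 difference 1.13). Of the 6 subunits of the helicase, Mcm2, Mcm3 and Mcm4 were lower and Mcm5, Mcm6 (0.069) and Mcm7 (0.11) alike, a division named after the values were seen.

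The lists of methyltransferases moved towards the reference by their medians too. The RNA list also holds genes such as Ythdc1 and Alkbh5, which are not methyltransferases. RNA methyltransferases and their partners (31 tested) had 14 genes higher, 9 lower and 9 alike (29.0%), with a median of 0.17 against 0.62 in full medium. Ythdc1, a nuclear reader of N6-methyladenosine, had 755, 738 and 813 in the restricted and 771, 761 and 808 in the reference libraries, overlapping, with 2108 and 2214 in the fed MYC high libraries. Mettl3, the writer of that mark, was 1.73-fold lower (log2 difference -0.78, SE 0.088, adjusted p = 3.74e-10), and Alkbh5, an eraser of it, 2.40-fold higher (log2 difference 1.26, SE 0.034, adjusted p = 1.28e-28). Nsun2, which makes 5-methylcytosine in tRNA, stayed 2.19-fold higher, with 4439.5, 4321 and 4474 against 1986, 2002 and 2061. The DNA and histone methyltransferases (35 tested) had 19 genes higher, 11 lower and 10 alike (28.6%), with a median of 0.12 against 0.50. The de novo enzyme Dnmt3a stood 2.10-fold above the reference (log2 difference 1.08, SE 0.053, adjusted p = 4.17e-20).

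One-carbon and nucleotide enzymes split in the same way. Shmt2, the mitochondrial serine hydroxymethyltransferase, had 2798, 2823 and 2697 in the restricted, 2775, 2708 and 2932 in the reference and 6067 and 6189 in the fed MYC high libraries. Restricted and reference libraries overlapped (95% interval -0.090 to 0.058). Dtymk (thymidylate kinase) also overlapped, at 951, 989 and 833 against 974, 935 and 961, with a difference of -0.053 (interval -0.15 to 0.049). Their differences in full medium were 1.13 and 1.10. Of the mitochondrial folate enzymes downstream of Shmt2, Mthfd2 was 2.05-fold lower (log2 difference -1.03, SE 0.037, adjusted p = 2.14e-24) and Mthfd1l 2.86-fold higher (log2 difference 1.52, SE 0.046, adjusted p = 6.65e-27). In all, 11 of 21 serine and folate genes were higher (52.4%), 5 lower (23.8%) and 5 alike (23.8%). Of all genes 36.5% were higher, 37.6% lower and 19.1% alike. The list had a median of 0.18 against 0.65 in full medium. Nucleotide synthesis kept more of its excess, with 27 of 37 genes higher (73.0%), 8 of them at least 2-fold. In the same list 6 were lower (16.2%) and 8 alike (21.6%), with a median of 0.46 against 0.66. Gart and Impdh2, both of purine synthesis, were 2.37-fold and 2.28-fold higher (log2 differences 1.24 and 1.19).

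**Figure D3:**
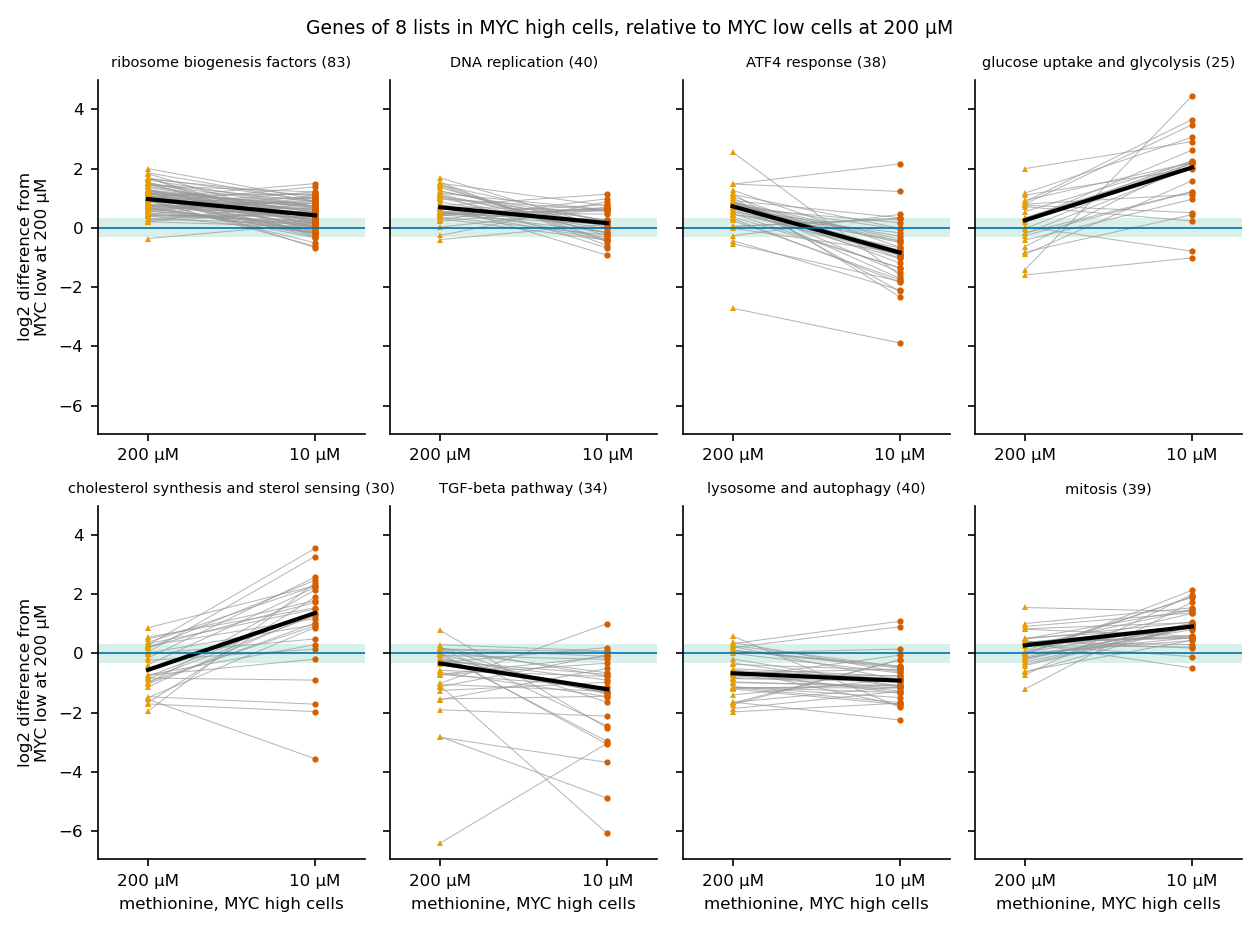
Each thin line is 1 gene of a list, from its log2 difference to MYC low cells at 200 µM in fed MYC high cells (200 µM, triangles) to that in restricted MYC high cells (10 µM, circles). The thick line joins the medians, the blue line is the level of MYC low cells at 200 µM and the green band is 0.32 log2 either way, and the medians go from 0.97 to 0.42 for ribosome biogenesis, from 0.72 to -0.83 for ATF4 targets and from 0.26 to 2.03 for glycolysis.

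Ribosomal proteins as a list stayed about as far above the reference as in full medium, though single genes moved. In MYC high cells 38 were lower at 10 than at 200 µM and 18 higher. Of 78 tested, 75 were higher, 1 was lower, and 8 (10.3%) were alike, with a median of 0.55 against 0.59 in full medium. The 2 that did not pass the test were Rpl31 (difference 0.037) and Rps10 (0.71), named after their values were seen. Rpl4, of the large subunit, had 23652, 24463 and 23949 in the restricted and 11803, 11751 and 11766 in the reference libraries, the largest difference of the list at 2.04-fold (log2 difference 1.03, SE 0.026, adjusted p = 2.18e-29). Rps25, of the small subunit, was 1.90-fold higher (log2 difference 0.92). Rpl12 was the exception, at 13122, 13905 and 12475 against 18306, 18130 and 18525, 1.39-fold lower (log2 difference -0.48, SE 0.031, adjusted p = 1.49e-16), with 38109 and 36973 in the fed MYC high libraries. Many ribosomal protein genes, and others such as Npm1, Ldha and Eno1, have near-identical copies in the genome among which counting can split reads, so single values carry that uncertainty.

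Translation factors resembled them by their medians, with 31 of 43 higher, 8 lower and 10 alike (median 0.47 against 0.57). In MYC high cells 26 of them were lower at 10 than at 200 µM and 11 higher. Eif5a, which eases peptide bond formation at prolines and is activated by a polyamine-derived residue, was 2.27-fold higher (log2 difference 1.18, SE 0.031, adjusted p = 8.88e-29). Eif1, which guards start codon choice, was the 1 factor at least 2-fold lower, with 4268, 4420.4 and 4074 in the restricted and 9687, 9836 and 10061 in the reference libraries (2.32-fold, log2 difference -1.21). Its difference in full medium was 0.86. The chaperonin subunit Tcp1, counted among the MYC targets and a member of the heat shock list (18 of 25 higher, 4 lower), was 2.47-fold higher (log2 difference 1.30).

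Cytosolic aminoacyl-tRNA synthetases, which charge tRNAs and several of which are ATF4 targets, were mixed. Of 20 tested, 11 were higher, 7 lower and 6 alike (30.0%), with a median of 0.13 against 0.64 in full medium. Wars, for tryptophan, had 1329, 1300.3 and 1232 in the restricted and 3231, 3319 and 3343 in the reference libraries, 2.56-fold lower (log2 difference -1.36, SE 0.036, adjusted p = 1.78e-28). Kars, for lysine, was 2.29-fold higher (log2 difference 1.19, SE 0.038, adjusted p = 3.12e-26), and Qars, for glutamine, 2.01-fold higher (log2 difference 1.01, SE 0.037, adjusted p = 2.94e-24). Yars, for tyrosine, was alike, with a difference of -0.23 where full medium gave 1.10.

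In the methionine cycle itself the enzymes lay on both sides of the reference, as did all genes tested. The median of the list came nearer to the reference than in full medium. In MYC high cells 13 genes of this list were lower at 10 than at 200 µM and 7 higher. Of 24 tested genes of the cycle, methionine salvage and polyamine synthesis, 11 were higher (45.8%), 10 lower (41.7%) and 4 alike (16.7%). Of all genes 36.5% were higher, 37.6% lower and 19.1% alike. The list had a median of 0.08 against 0.43 in full medium. Mat2a, which makes S-adenosylmethionine, had 1536, 1531 and 1586 in the restricted and 2365, 2336 and 2399 in the reference libraries. It was 1.53-fold lower (log2 difference -0.61, SE 0.037, adjusted p = 2.02e-17), and fed MYC high cells stood at 2769.5 and 3034. Ahcy, which clears S-adenosylhomocysteine, had 2708, 2667 and 2556 against 1135, 1176 and 1118, 2.31-fold higher (log2 difference 1.21, SE 0.039, adjusted p = 7.5e-26), with 2477 and 2407 in the fed MYC high libraries.

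Mtrr, which reactivates methionine synthase, was 1.71-fold lower (log2 difference -0.77, SE 0.068, adjusted p = 6.91e-13). The salvage enzyme Mtap was 1.54-fold higher (log2 difference 0.63, SE 0.040, adjusted p = 6.64e-17), while Mri1, the next enzyme of salvage, was alike (0.10, interval -0.045 to 0.25). For polyamines, the decarboxylase Odc1 was 1.5-fold higher (log2 difference 0.59) and spermidine synthase (Srm) 2.93-fold higher, with 1628, 1721 and 1635 against 544, 532 and 626. Spermine oxidase (Smox), which breaks spermine down, was 2.46-fold lower (log2 difference -1.30, SE 0.060, adjusted p = 5.64e-21). Enzymes of polyamine synthesis thus kept most of the excess they had in full medium (0.83 for Odc1 and 1.89 for Srm).

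Carriers of amino acids were mostly lower. Of 15 tested, 3 were higher (Slc7a5, Slc1a5 and Slc7a7) and 11 lower, none was alike, and the median was -0.65 against 0.25 in full medium. LAT1, the main importer of methionine and other large neutral amino acids, is a pair of proteins, and its genes lay on opposite sides. Slc7a5, the transporting subunit, had 4970.3, 5101 and 4775 in the restricted and 2481, 2427 and 2547 in the reference libraries, 1.99-fold higher (log2 difference 0.99, SE 0.034, adjusted p = 5.83e-25). Slc3a2, the heavy chain, had 4153, 4432 and 4197 against 14307, 14255 and 14536, 3.37-fold lower (log2 difference -1.75, SE 0.028, adjusted p = 1.11e-35). Slc43a2, LAT4, was 4.41-fold lower, at 97.8, 121 and 94.2 against 498, 453 and 426, with 78.8 and 82.7 in the fed MYC high libraries.

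ATF4 targets lay below MYC low cells in full medium. Of 38 tested, 29 were lower, 15 at least 2-fold, and 7 higher, 2 of them at least 2-fold, against 37.6% and 36.5% of all genes. The median was -0.83, where that of the fed MYC high libraries was 0.72. Atf4 itself had 2944, 2970.2 and 2697 in the restricted and 3529.5, 3505 and 3440.5 in the reference libraries, 1.22-fold lower (log2 difference -0.28, SE 0.035, adjusted p = 4.33e-09). Trib3, a pseudokinase and a standard marker of this response, had 565, 590.4 and 561 against 1824, 1881 and 1881, with 3329 and 3121 in the fed MYC high libraries. The restricted libraries held 3.25-fold less of it (log2 difference -1.70, SE 0.048, adjusted p = 1.13e-27).

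Gdf15, a secreted stress factor, was 4.28-fold lower (log2 difference -2.10, SE 0.034, adjusted p = 1.11e-35). Asns was alike by its interval (0.11 to 0.24), with 4377, 4601 and 4341 in the restricted and 3877, 3979 and 3950.5 in the reference libraries, though the groups did not overlap. Psat1, of serine synthesis, stood far above, with 16893, 16835 and 16351 against 3629, 3798 and 3821 and 10255 and 10551 in the fed MYC high libraries, 4.45-fold higher than the reference (log2 difference 2.15, SE 0.030, adjusted p = 1.23e-37). Ddit4, an inhibitor of mTORC1, was 2.34-fold higher (log2 difference 1.23). Of the 35 promoters found for the list 28.6% held TGATGNAA, against 2.33% of all. The list is made of genes known as ATF4 targets, so its share follows in part from that choice. The share was 25% of 12 for aminoacyl-tRNA synthetases, whose median lay above the reference, and 16.7% of 12 for amino acid carriers. In the unfolded protein response, 14 of 26 genes were lower, 9 higher and 8 alike (30.8%). Its chief chaperone Hspa5 was alike, with 8711, 8846 and 8597 against 7585, 7868 and 7879.7 and 22294 and 22703 in the fed MYC high libraries.

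Glycolysis had the highest median of the lists. Of 25 tested genes of glucose uptake and glycolysis, 22 were higher, 19 of them at least 2-fold against 7.83% of all genes, and 2 lower, and none was alike. The median difference was 2.03, where that of the fed MYC high libraries was 0.26. Ldha had 58785, 60321 and 57173 in the restricted, 5201, 5361 and 5280.3 in the reference and 9157 and 9240.4 in the fed MYC high libraries, 11.1-fold above the reference (log2 difference 3.48, SE 0.027, adjusted p = 1.18e-45). Pgk1 (phosphoglycerate kinase) had 47950, 50356 and 48067 against 5937, 5948 and 5737, 8.31-fold higher (log2 difference 3.05, SE 0.028, adjusted p = 4.01e-43). Aldoa (aldolase) and Eno1 (enolase) were 4.79-fold and 4.60-fold higher. The lower genes were Pdk2, an inhibitor of pyruvate dehydrogenase (2.03-fold lower, log2 difference -1.01), and the lactate carrier Slc16a3, with 18.3, 27.3 and 11.1 against 32.2, 28.7 and 33.9. The call of Slc16a3 (log2 difference -0.79, adjusted p = 0.0125) rests on the restricted replicate 3, without which the difference is -0.47 (adjusted p = 0.142).

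Genes known to be raised in hypoxia, outside glycolysis, were higher in 25 of 36 and lower in 7, with 21 at least 2-fold higher. Their median was 1.27, against 0.12 in full medium. Bnip3 had 7092, 7423 and 7076 in the restricted and 318, 338 and 322 in the reference libraries, 22.1-fold higher (log2 difference 4.46, SE 0.051, adjusted p = 2.6e-40), with 273 and 261 in the fed MYC high libraries. Egln3, a prolyl hydroxylase that marks HIF proteins for degradation, was 16.5-fold higher (log2 difference 4.05, SE 0.043, adjusted p = 3.06e-41), and Fam162a, a mitochondrial protein, 16.5-fold higher (log2 difference 4.04, SE 0.048, adjusted p = 1.4e-39). Some members ran the other way. Vegfa, the endothelial growth factor, had 911, 990.4 and 953 against 1796, 1766 and 1758, 1.86-fold lower, and Hif1a was 1.38-fold lower (log2 differences -0.90 and -0.46). A hypoxia core stood in 92.0% of the 25 glycolysis promoters and 82.1% of the 28 promoters found for this list, against 62.8% of all. Shares of at least 80.0% were also found in lists that were not raised in this way. They were 93.8% (of 16) for G1 cyclins and CDK inhibitors, 85.7% (of 14) for clock genes and 80.0% (of 30) for lysosome and autophagy. Over the genes at least 2-fold higher the share was 61.0%.

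**Figure D4:**
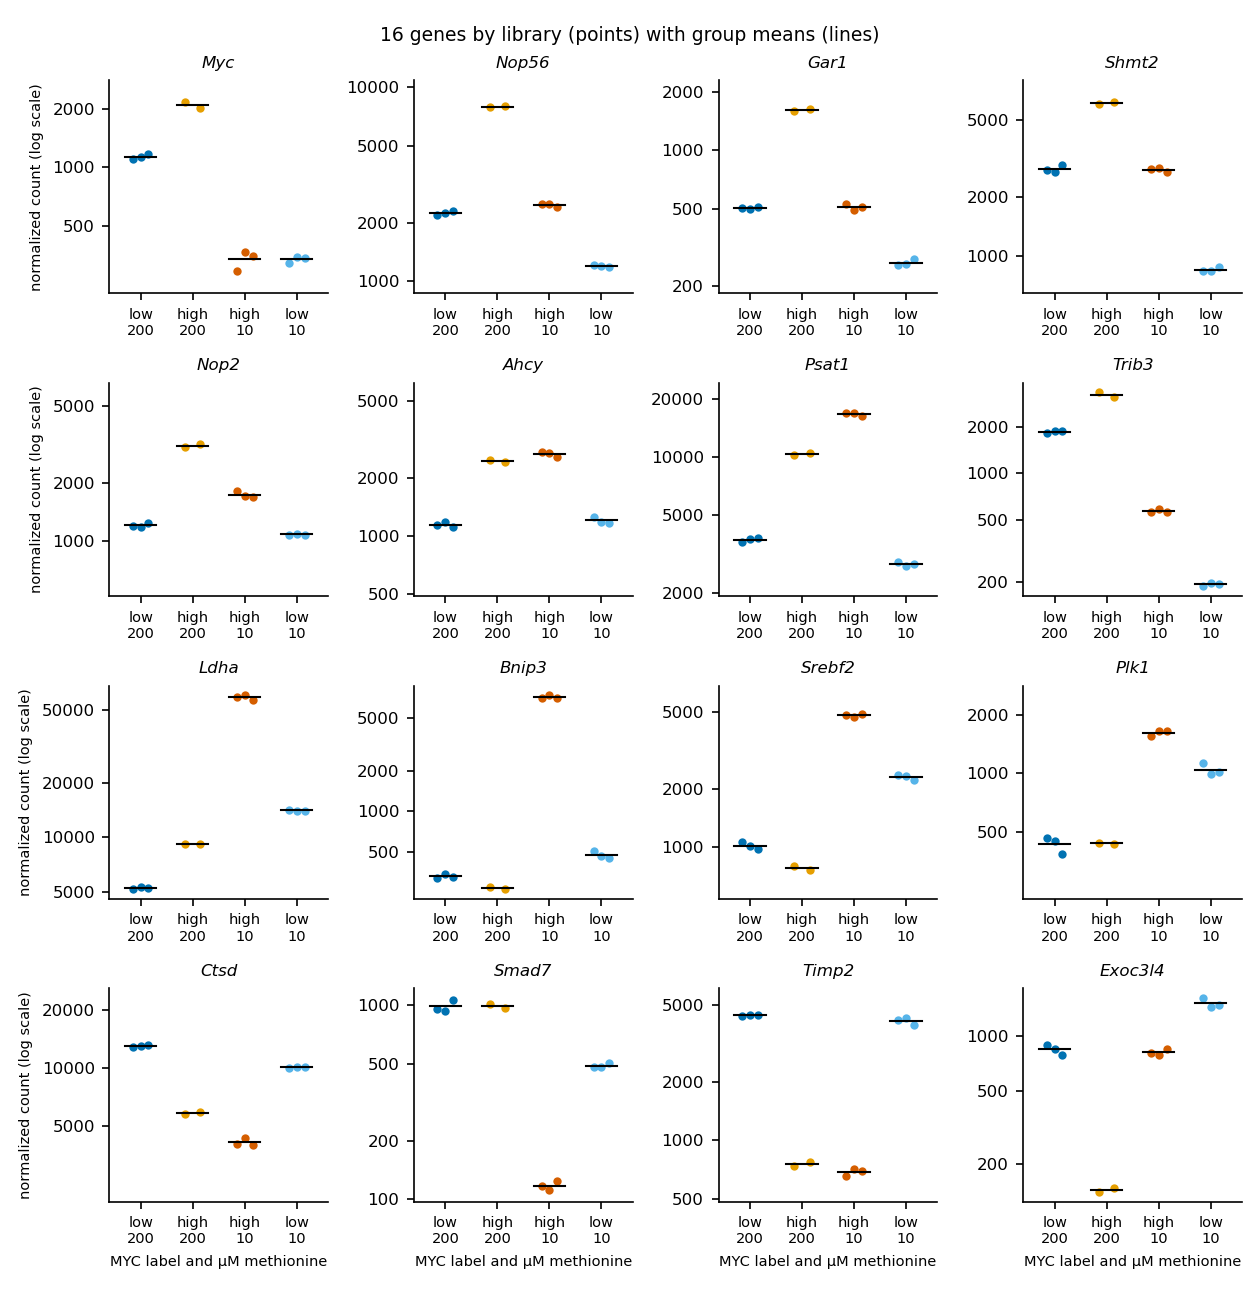
Normalized counts (log axis) of 16 genes in every library (points), with group means (lines), by MYC label and methionine in µM. Nop56, Gar1, Shmt2 and Exoc3l4 stand at about 1 level in MYC low at 200 µM and MYC high at 10 µM, while Ldha (11.1-fold higher) and Smad7 (8.42-fold lower) are far apart.

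Sterol genes crossed from below the reference to above it. Of 30 genes of cholesterol synthesis and sterol sensing, 25 were higher, 19 at least 2-fold, and 5 lower (median 1.36, against -0.56 in full medium). Srebf2, the transcription factor of the pathway, had 4810.3, 4715 and 4863 in the restricted, 1072, 1019 and 977 in the reference and 801 and 763 in the fed MYC high libraries. It was 4.69-fold above the reference (log2 difference 2.23, SE 0.039, adjusted p = 1.8e-34), while fed MYC high cells stood at -0.39. Sqle (squalene epoxidase) had 1814, 1958 and 1898 against 557, 539 and 553, 3.44-fold higher (log2 difference 1.78, SE 0.047, adjusted p = 1.42e-28). The lower members include 3 genes known as targets of the oxysterol receptor LXR, namely the exporters Abca1 (25.5, 16.2 and 19.2 against 233, 274 and 229) and Abcg1 (-1.96) and the ubiquitin ligase Mylip (-1.71). Abca1 was 12.1-fold lower (log2 difference -3.55, SE 0.15, adjusted p = 3.88e-22).

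Fatty acid synthesis had 15 of 22 genes higher, 7 of them at least 2-fold, and 5 lower (median 0.65 against -0.21). The desaturases went apart from each other. Scd2 had 68471, 68641 and 71266 in the restricted and 12621, 12911 and 11717 in the reference libraries, 5.59-fold higher (log2 difference 2.48, SE 0.030, adjusted p = 1.56e-39), while Scd1 had 12635, 12916 and 13281 against 23216, 22547 and 21919, 1.74-fold lower (log2 difference -0.80, SE 0.029, adjusted p = 1.66e-24). The elongase Elovl6 was 11.3-fold higher (log2 difference 3.49). In fatty acid oxidation 15 of 23 genes were higher and 7 lower, with the thiolase Acaa2 3.47-fold higher (log2 difference 1.79).

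Mitochondrial genes differed by the genome that encodes them. Of 51 nuclear-encoded genes of oxidative phosphorylation, 47 were higher and 3 lower (Ndufa2, Sdhb and Uqcrq), 7 of the former at least 2-fold, with a median of 0.59 against 0.36 in full medium. The call of Sdhb, of complex II, is lost without the restricted replicate 1 (-0.092, adjusted p = 0.0805). Cox7a2, of cytochrome oxidase, was 2.79-fold higher (log2 difference 1.48, SE 0.049, adjusted p = 1.31e-25). Of the 8 tested messenger RNAs of the mitochondrial genome, 7 were lower, 6 at least 2-fold, and none higher, with a median of -1.18 against -1.05 in full medium. mt-Nd4, of complex I, had 4260.2, 3611 and 3964 in the restricted and 12037, 11709 and 11195 in the reference libraries, 2.95-fold lower (log2 difference -1.56, SE 0.038, adjusted p = 7.31e-30). mt-Co1 was 2.42-fold lower (log2 difference -1.28). These messages made up 0.655% ± 0.0520 (SD, n = 3) of reads in the restricted, 1.51% ± 0.0370 (n = 3) in the reference and 0.693% ± 0.0230 (n = 2) in the fed MYC high libraries. Whether RNA quality differed with this share was not tested.

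Genes of mitosis stood above both fed groups. Of 39 tested, 37 were higher, 14 at least 2-fold, 1 was lower (Ndc80, -0.49) and 2 were alike, with a median of 0.91 against 0.27 in full medium. Plk1, the polo-like kinase, had 1568, 1648 and 1656 in the restricted, 463, 446 and 386 in the reference and 435 and 435 in the fed MYC high libraries. It was 3.76-fold above the reference (log2 difference 1.91, SE 0.058, adjusted p = 7.69e-27). Cenpa, the centromeric histone, and Ccnb2 (cyclin B2) were 4.37-fold and 3.32-fold higher (log2 differences 2.13 and 1.73).

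Regulators of G1 lay on both sides, as did all genes tested, with 10 of 20 higher (50%), 6 lower (30%) and 5 alike (25%). Ccnd1 (cyclin D1) had 2159, 2196 and 2082 against 7441, 7374 and 7945, 3.54-fold lower (log2 difference -1.82, SE 0.033, adjusted p = 5.59e-34), and Ccnd3 was 2.95-fold higher (log2 difference 1.56, SE 0.047, adjusted p = 9.7e-27). Ccne2 (cyclin E2) overlapped between the groups, at 297, 307 and 287 and 281, 322 and 317, where the fed MYC high libraries had 821 and 843. The inhibitors Cdkn1a (p21) and Cdkn2a were 1.62-fold and 2.76-fold higher (log2 differences 0.70 and 1.46). Targets of p53 as a list had 12 of 31 higher (38.7%), 15 lower (48.4%) and 6 alike (19.4%). Of all genes 36.5% were higher, 37.6% lower and 19.1% alike. None of the p53 targets was at least 2-fold higher and 2 were at least 2-fold lower.

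Lysosomal genes stayed below the reference. Of 40 tested genes of the lysosome and autophagy, 35 were lower, 18 at least 2-fold against 8.65% of all genes, and 3 were higher. The median was -0.92, against -0.67 in full medium. Ctsd (cathepsin D) had 4068, 4330.2 and 4009 in the restricted, 12904, 13041 and 13130 in the reference and 5824 and 5914 in the fed MYC high libraries, 3.15-fold below the reference (log2 difference -1.66, SE 0.029, adjusted p = 2.02e-34). Ctsl (cathepsin L) was 4.73-fold lower (log2 difference -2.24). Sqstm1 (p62, an autophagy receptor) was 3.52-fold lower at -1.82, although fed MYC high cells stood at 0.59. Lipa, lysosomal acid lipase, was 1 of 3 alike genes, with 1267, 1294 and 1246 against 1537, 1414 and 1460.4 and 449 and 437 in the fed MYC high libraries. Tfeb, a transcription factor for the lysosome, was among the higher genes (1.86-fold, log2 difference 0.90).

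Most genes of the TGF-beta pathway and of the matrix were lower. In the pathway, 27 of 34 tested genes were lower, 18 of them at least 2-fold, and 1 was higher, with a median of -1.21 against -0.34 in full medium. The 1 higher gene, Tgfb3, had 8.15, 10.1 and 16.2 against 6.83, 6.14 and 2.90 (adjusted p = 0.0284). Without the restricted or the reference replicate 3 its call is lost, at 0.75 and 0.69 (adjusted p = 0.155 in both). Smad7, the inhibitory SMAD and an early target, had 116, 111 and 124 in the restricted, 957, 937 and 1062 in the reference and 1018 and 968 in the fed MYC high libraries. It was 8.42-fold lower (log2 difference -3.06, SE 0.064, adjusted p = 4.76e-32), where the difference in full medium was 0.012. Pmepa1, another early target and feedback inhibitor, had 7.13, 5.06 and 4.05 against 406, 397 and 468 (log2 difference -6.07, SE 0.14, adjusted p = 2.26e-30). Id3, an inhibitor of differentiation known as a BMP target, was 5.73-fold lower (log2 difference -2.51, in full medium 0.77). Alike genes of the list numbered 6 (17.6%).

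In matrix and integrins, 20 of 29 genes were lower, 10 at least 2-fold, and 7 higher (median -0.60 against -0.76). Some of the low genes were similarly low in both MYC high groups. Timp2, an inhibitor of matrix proteases, had 657, 709 and 691 in the restricted, 4357, 4445 and 4418 in the reference and 738 and 771 in the fed MYC high libraries, and Fn1 (fibronectin) had 168, 149.9 and 148, 1739, 1612 and 1471 and 194 and 167 in the same order. They were 6.43-fold and 10.4-fold below the reference (log2 differences -2.68 and -3.36, SE 0.039 and 0.065). Col5a1, a fibrillar collagen chain, was 2.75-fold higher (log2 difference 1.46), with a difference of -0.81 in full medium. Of the 4 testable fibroblast markers of 20, Vim and Sparc were higher and Fn1 and Tagln lower. The summed level of that list was 41925 to 44010 in the restricted and 29418 to 30117 in the reference libraries, and its part was not tested.

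By their medians, interferon and antioxidant genes came nearer to the reference from below. The 23 tested genes of the type I interferon response had 12 lower, 6 higher and 1 alike, with a median of -0.35 against -1.75 in full medium. These genes are weakly expressed, with a median count of 11.6 over the 42 listed, and the value in full medium rests on 2 libraries. Taken library by library, the list median of the fed MYC high libraries was -1.26 and -1.42. Lgals3bp, a secreted glycoprotein induced by interferon, had 171, 165 and 179 in the restricted, 762, 779 and 738 in the reference and 32.0 and 18.0 in the fed MYC high libraries, still 4.42-fold below the reference (log2 difference -2.14, SE 0.11, adjusted p = 4e-20). Bst2 (tetherin) crossed to 2.17-fold higher (log2 difference 1.12, SE 0.050, adjusted p = 1.46e-21), with a difference of -0.89 in full medium. Glutathione genes and NRF2 targets had 17 of 34 higher (50%), 16 lower (47.1%) and 4 alike (11.8%). Of all genes 36.5% were higher, 37.6% lower and 19.1% alike. The median of the list was 0.097 against -0.55, with most members apart from the reference on 1 side or the other. Gstp1, a glutathione transferase, was alike at 0.20 where full medium gave -1.04. Gpx4, which repairs lipid peroxides, was 2.47-fold lower (log2 difference -1.31, SE 0.040, adjusted p = 1.18e-26). Genes of MHC class I and the immunoproteasome had 7 of 16 higher and 7 lower, with a median of 0.036. Without the reference replicate 2 that median is -0.025.

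Early response genes were split and most clock genes were lower. Among immediate early genes 12 of 25 (48.0%) were lower and 9 (36.0%) higher, against 37.6% and 36.5% of all genes tested. Junb had 808, 842 and 867 against 3080.1, 3034 and 3049.5, 3.64-fold lower (log2 difference -1.86, SE 0.036, adjusted p = 5.59e-33), whereas Jun overlapped between the groups (603, 533 and 531 against 519, 541 and 506). Ier5 was alike, with 1805, 1829.9 and 1746 in the restricted, 1726, 1617 and 1598 in the reference and 8810.1 and 8601 in the fed MYC high libraries. Of 16 clock genes 11 were lower and 4 higher, none alike, and the repressor Nr1d2 was 3.33-fold lower (log2 difference -1.73, in full medium 0.041).

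The single genes farthest above the reference, among those with a mean count of at least 100, include 4 of the hypoxia list (Ankrd37, Bnip3, Egln3 and Fam162a). Selenbp1, which oxidizes methanethiol, had 1270.3, 1399.5 and 1293 in the restricted and 4.88, 8.19 and 1.94 in the reference libraries (log2 difference 7.93, SE 0.28, adjusted p = 8.33e-25), and 4.57 and 3.18 in the fed MYC high libraries. It has a close paralog, between which counting may split reads. Ankrd37 (5.22), Efhd1 (4.88), Bnip3, Gm45507 (4.44), Sprr1b (4.25), Egln3, Fam162a, Peg10 (3.94) and Ak4 (3.76) followed. Sprr1b, an epithelial envelope protein, differed in full medium by 4.14, and Peg10, an imprinted gene of retroviral descent, by 0.0044.

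At the other end Synpo, an actin-binding protein, had 6.11, 2.03 and 5.06 in the restricted, 414, 389 and 368 in the reference and 2.29 and 5.30 in the fed MYC high libraries (log2 difference -6.27, SE 0.22, adjusted p = 6.99e-25). Pmepa1, Bmf (-4.70), a BH3-only cell death gene, Pmp22 (-4.56), Clstn2 (-4.22), Sned1 (-3.98), Cdsn (-3.88), Tcn2 (-3.85), the carrier of vitamin B12, Tle3 (-3.78) and Ptgs2 (-3.76) followed. In full medium their differences varied. Synpo and Bmf stood at -6.42 and -3.65 there, whereas Ptgs2, which encodes cyclooxygenase 2, had 119, 88.1 and 108 in the restricted and 1394, 1365 and 1516 in the reference libraries but 1336 and 1465 in the fed MYC high libraries.

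Among the alike genes, the 12 with the largest MYC difference in full medium lay mostly below the reference in the fed MYC high libraries. Ier5 was the 1 above it there. The other 11 were Syne1, Gm10425, Exoc3l4, Cbr1, Tmem37, Slc27a1, Idh1, Llgl2, Spns3, Casp6 and Cemip2. Exoc3l4 had 804, 793 and 855 in the restricted, 899, 846 and 791 in the reference and 141 and 149 in the fed MYC high libraries, and the first groups overlapped (95% interval -0.16 to 0.066). Idh1, the cytosolic isocitrate dehydrogenase, had 1470, 1433 and 1448, 1706, 1619 and 1579 and 367 and 367 in the same order, and Cbr1, a carbonyl reductase, 1795, 1840.1 and 1663, 2096, 2042 and 2058 and 386 and 376. Both lay slightly below the reference without overlap (-0.17 and -0.23). These genes were picked for the difference in full medium, so its size is a description.

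Markers of liver lineage went both ways. Of 12 tested fetal liver, biliary and progenitor markers, 5 were higher and 6 lower, and none was alike. Afp, alpha-fetoprotein of the fetal liver and of liver tumours, had 366, 337 and 349 in the restricted and 78.0, 106 and 83.2 in the reference libraries, 3.93-fold higher (log2 difference 1.98, SE 0.11, adjusted p = 4.03e-18). Krt19, a biliary keratin, had 11510, 12684 and 11870 against 3349, 3371 and 3034, 3.70-fold higher (log2 difference 1.89), and fed MYC high libraries had 1485 and 1468. Sox4, a progenitor transcription factor, was 4.79-fold lower (log2 difference -2.26, SE 0.034, adjusted p = 8.16e-37). The summed level of the list was 23177 to 24300 in the restricted and 30589 to 30690 in the reference libraries. Of hepatocyte markers Cebpa was higher (1.22) and Ass1 and Nr1h4 lower (-0.22 and -1.51), and the list summed to 614 to 656 in the restricted and 730.3 to 758 in the reference libraries. Of the 3 testable macrophage markers Cd68, which is also lysosomal, was higher (2.34), Cd14 lower (-1.07) and Csf1r alike, with sums of 1061 to 1133 and 919 to 963. The 2 testable endothelial markers of 12, Stab1 and Eng, were both higher, with sums of 107 to 116 and 52.7 to 69.6. The call of Stab1 is lost without the restricted replicate 1 (0.64) and without the reference replicate 1 (0.58) or 2 (0.74). That of Ass1 is lost without the reference replicate 2 (-0.17, adjusted p = 0.0598). The part of other cells in these values was not tested.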

How the data were processed

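Polyadenylated RNA of EC4 cells was sequenced from NEBNext Ultra II libraries, per the labels' protocols. The authors deposited 1 signal value per gene and library, named normalized counts per the file headers. Build GRCm39 and the tools STAR, HTSeq, DESeq2, fastp, FastQC and SAMtools appear in the submitters' processing notes. The strand setting is not given in the sources used here, and overlapping or antisense genes may share reads. Dividing the values by each library's smallest step gave whole reads for 100% of values (tolerance 0.001), with size factors of 0.875 to 1.13. Symbols came from GENCODE M21 (52083 of 55416 identifiers).

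Genes with a mean of at least 10 were tested on log2(value + 1), which understates fold changes of low genes, with limma 3.58.1 in R 4.3.3. It fitted 1 mean per group over all 4 groups with a mean-expression trend (7 residual and 29.0 prior degrees of freedom) and adjusted p-values over all genes by Benjamini-Hochberg at 0.05. Folds are ratios of group mean counts, SE is the moderated standard error and intervals are 95%. Alternatives were edgeR 4.0.16 and DESeq2 1.42.0 on the recovered reads, other scalings, filters and pseudocounts, and libraries left out. The fit was tested on simulated data. Genes named were those fixed by name, the 10 largest differences each way and the 12 alike genes with the largest MYC difference in full medium (mean of at least 100). From each list, up to 4 called members of smallest p and those against the list were added. So were up to 2 alike members, those with the largest called MYC difference in full medium. Genes outside this rule are named only to complete a small count. The comparison, the lists and the tests were chosen with earlier results of these data known. Some items are not reported here.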

Additional observations from a re-analysis of the deposited data

How the results depend on the processing

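The counts of genes higher, lower and at least 2-fold lower stayed within 1.5 times under every alternative run. Without the filter on low values 1686 genes were at least 2-fold higher, in place of 1011. With the limit of likeness widened to 1.5-fold, 5702 genes were alike, in place of 2470. Leaving out 1 library gave 4512 to 4582 higher, 4638 to 4696 lower, 985 to 1036 at least 2-fold higher, 1118 to 1135 at least 2-fold lower and 2211 to 2323 alike. The median of MHC class I and immunoproteasome genes, 0.036, was -0.12 at a mean of at least 50, and -0.025 to 0.045 with 1 library left out, the lowest without MYC low 200 µM replicate 2. Replicate numbers did not pair the libraries (correlations of same-numbered deviations -0.00774, -0.0327 and -0.0344), and a replicate block gave 4710, 4837, 1011, 1116 and 2463 for the same counts. edgeR gave 4810, 4841, 1031, 1116 and 2511, and DESeq2 4535, 4500, 1027, 1108 and 2178. Of 6929 refits of named genes 109 lost a call and 10 gained one. None of the 6305 refits of genes called in the design changed sign, while 28 of the 624 of genes not called there, in 17 genes, crossed 0 without a call. Of 608 refits of list medians 27, besides the MHC values above, moved beyond the spread between libraries. For the limits set by depth, 2465 genes were alike at a mean of at least 50 and 2484 without the filter on low values.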
